A study of Mus musculus with 6 samples.

Results

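The genes described here are 33 genes of the ATF4 amino acid response and of the unfolded protein response, measured on arrays in E14 cells, a line of mouse embryonic stem cells. They were chosen by name: a member is a gene whose symbol stands alone on a probe set of the array, with the brightest probe set taken where a gene had several. All 33 were found among 19938 genes with such a probe set, and Dnajc3 and Pdia4 had a second one, which held the same values as the first on every array for Dnajc3 and was dimmer for Pdia4. By role, 19 were placed in the amino acid arm and 14 in the endoplasmic reticulum arm. The cells had been transfected with siRNA 2 against p/CIP, with siRNA 1 against p/CIP, or with pooled non-specific siRNAs as the control, and each of these 3 groups had 2 arrays, numbered replicate 1 and 2. All 6 arrays come from this 1 line, whose control cells the submitters call wild type, and the labels give no time after transfection. p/CIP is the protein of Ncoa3, a coactivator of nuclear receptors, and the study asked which transcripts depend on it.

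Cells that lack an amino acid, or that load the endoplasmic reticulum (ER) with unfolded protein, switch on kinases that phosphorylate the translation factor eIF2. General translation then drops, while the mRNA of Atf4 is translated more, and the ATF4 protein binds C/EBP-ATF response elements in genes that make and import amino acids. The ER has further sensors of its own: IRE1 splices the mRNA of Xbp1, and ATF6 is cut to release a transcription factor, and both of these factors act through ER stress response elements in the genes of chaperones. Embryonic stem cells divide fast and are known to depend on amino acid supply and on one-carbon metabolism. The arrays read the amount of a transcript, so neither the translation of Atf4, the splicing of Xbp1 nor the cleavage of ATF6 is visible in these values.

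The stretches of promoter shown next hold sequence matches to the elements through which these factors act. They come from the 4 members of each arm that hold a match and differed most, for both siRNAs together or between the siRNAs. RefSeq windows (GRCm38.p6) from 250 bases before to 50 after the start site were found by symbol for 17 of 19 members of the amino acid arm and 13 of 14 of the ER arm. Slc7a5, Slc7a3 and Atf6 have none in the table used. Both strands were searched for TGATGNAA (the core of the C/EBP-ATF response element), for CCAAT and CCACG parted by 9 bases (the ER stress response element), for ATTGG and CCACG parted by 1 base (its second form) and for TGACGTGG (the core of the unfolded protein response element). Capitals mark the match, with 20 bases on either side. The strand given is that of the gene, and TTGCATCA is TGATGCAA read on the other strand.
Chac1 (chr2:119351029-119351076, + strand): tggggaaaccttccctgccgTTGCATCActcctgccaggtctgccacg
Vldlr (chr19:27216800-27216847, + strand): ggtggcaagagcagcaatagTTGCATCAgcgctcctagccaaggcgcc
Trib3 (chr2:152344019-152344066, - strand): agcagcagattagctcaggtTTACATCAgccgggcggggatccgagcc
Slc7a11 (chr3:50443633-50443699, - strand): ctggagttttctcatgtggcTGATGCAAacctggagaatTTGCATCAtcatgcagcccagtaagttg
Herpud1 (chr8:94386297-94386407, + strand): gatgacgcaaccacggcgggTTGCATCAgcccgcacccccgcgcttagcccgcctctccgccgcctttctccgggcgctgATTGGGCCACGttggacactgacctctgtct
Hsp90b1 (chr10:86705513-86705676, - strand): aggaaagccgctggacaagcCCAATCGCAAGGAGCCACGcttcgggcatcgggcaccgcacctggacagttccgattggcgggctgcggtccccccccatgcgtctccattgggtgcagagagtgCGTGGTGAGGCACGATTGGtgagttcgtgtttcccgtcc
Pdia6 (chr12:17266471-17266529, + strand): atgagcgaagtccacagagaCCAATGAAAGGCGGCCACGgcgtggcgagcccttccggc
Calr (chr8:84847055-84847113, - strand): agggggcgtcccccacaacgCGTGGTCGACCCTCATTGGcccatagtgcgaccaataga

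The motifs divided along the arms. TGATGNAA was present for 5 of the 17 amino acid members, Asns, Chac1, Slc7a11, Trib3 and Vldlr, and for 1 of the 13 ER members, Herpud1, against 4.51% of the 27025 genes with a window. In Vldlr the match lies in 1 of its 2 windows. The ER stress response element was present for 5 of the 13 ER members, Hspa5, Hsp90b1, Dnajc3, Pdia6 and Calr, and for 0 of the 17 amino acid members, against 0.137% of genes. Its second form was found in Herpud1 alone among the members, against 0.0444% of genes, and TGACGTGG in 0 members, against 0.714%. Herpud1 thus holds a match of each kind, the first at base -112 and the second at base -52 from the start site. In Chac1 and Vldlr the C/EBP-ATF core lies far upstream, at -193 and -200, and in Asns and Trib3 beside the start, at -23 and 15. Several members are known in the literature as targets of these factors, so the counts describe the choice of genes, and a match is not a measured site.

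**Figure D1:**
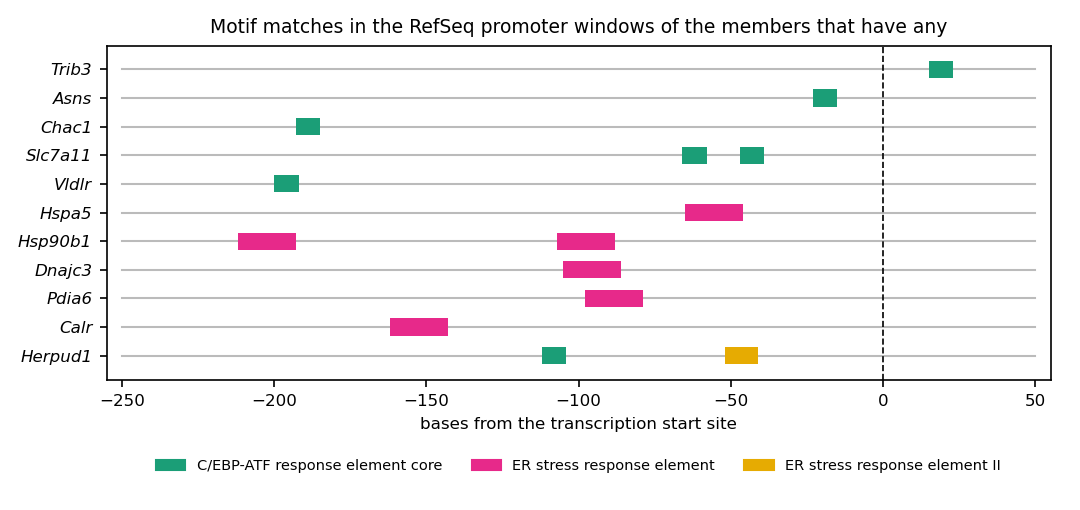
Positions of the motif matches, in bases from the transcription start site (dashed line), in the windows of the 11 members that have any; each grey line is the window that holds the match, from 250 bases before to 50 after the start. Those of the C/EBP-ATF core lie mostly in the amino acid genes and those of the ER stress response element in ER genes alone among these members.

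The knockdown itself was clear on all arrays. Ncoa3 read 10.71 and 10.92 with siRNA 2 and 10.71 and 10.93 with siRNA 1, against 12.33 and 12.28 with control siRNA, on the deposited log2 scale. That is 2.81-fold lower for both siRNAs (limma adjusted p = 0.0287; 0.0742 for siRNA 2 and 0.0452 for siRNA 1 against control). The 10 embryonic stem cell markers checked read from 10.26 to 13.77 on every array, where the median gene lay at 7.81. The 9 fibroblast markers read from 3.88 to 9.13, and their summed log2 values were 60.27 and 60.7 with siRNA 2 and 59.25 and 61.05 with siRNA 1, against 59.4 and 60.09 in control. The stem cell markers summed to 122.5 and 121.6 with siRNA 2 and 122.3 and 120.7 with siRNA 1, against 123.5 and 123.0 in control. Of the stem cell markers 9 of 10 lay below control for both siRNAs (median -0.11, lowest -0.39) and of the fibroblast markers 6 of 9 above it (median 0.07). At limma's unadjusted p under 0.05, 3 stem cell markers were lower (4.86% of all genes) and 1 fibroblast marker was higher (3.86%). With adjustment 0 were called in either list, and the part of these markers in the results was not tested. In bulk RNA, fewer cells of a type and less RNA per cell cannot be told apart. The second siRNA 1 array had a narrower spread over genes than the others, with an interquartile range of 3.13 against 3.33 to 3.45 on the other 5.

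No member passed the test in any comparison of the fit reported, which has no replicate block. Slc7a3 passed for siRNA 1 in some alternative fits. These were the fit with that block (limma adjusted p = 0.048), with only genes above the median level (0.0482) and with eBayes trend and robust options (0.0167). In limma's moderated test with Benjamini-Hochberg adjustment over all genes, 0 of 33 members had an adjusted p under 0.05 for both siRNAs against control, and 0 for siRNA 2 against control, siRNA 1 against control or siRNA 2 against siRNA 1. The background over all genes was 0.0702% called for both siRNAs and 0.0702% for siRNA 1, all lower, and 0% for the other comparisons. At an unadjusted p under 0.05 there were 5 members for both siRNAs, 15.2% of them against 8.72% of all genes. Vldlr was higher (3.86% of all genes were), and Slc7a3, Chac1, Dnajb9 and Mthfd2 were lower (4.86%). For siRNA 2 the count was 2, 6.06% against 5.25%, with 0 higher (2.25% of all genes) and Chac1 and Mthfd2 lower (2.99%). For siRNA 1 it was 5, 15.2% against 12.1%, with Cebpb, Vldlr and Ern1 higher (5.78%) and Slc7a3 and Dnajb9 lower (6.37%). Between siRNA 2 and siRNA 1 it was 2, 6.06% against 6.9%, with Slc7a3 higher (3.36%) and Cebpb lower (3.54%). Each share lies near the background or rests on few genes. Nothing in the labels ties the replicates to separate cultures, and the p-values may therefore reflect technical spread only.

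The intervals of the members' changes were narrow in this fit. They rest on 2 arrays a group, may reflect technical spread only, and were not adjusted for the number of members. For both siRNAs against control, the largest difference was that of Slc7a3, at 1.22-fold, and the 95% intervals of all 33 members lay within 1.5-fold either way. The widest reach of any interval was 1.37-fold. The same held for 33 members with siRNA 2 and for 32 with siRNA 1, where the interval of Slc7a3 reached 1.54-fold. Standard errors of the members ran from 0.0645 to 0.113 on the log2 scale for both siRNAs. The base of the log was inferred from the range of the values, and folds would differ with another base.

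**Figure D2:**
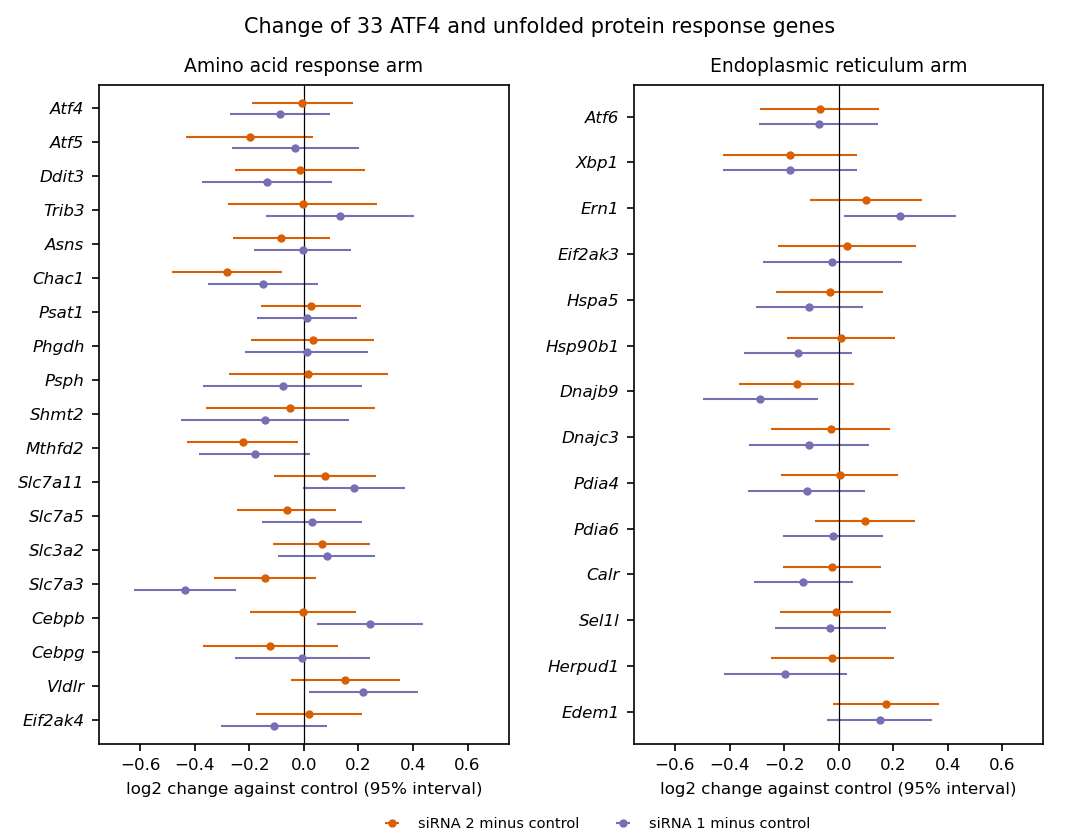
Log2 change against control of each of the 33 members with siRNA 2 (orange, upper point) and siRNA 1 (violet, lower point); bars are 95% intervals from limma over 2 arrays a group, and both siRNAs share the same 2 control arrays. Most intervals cover 0, and that of Slc7a3 with siRNA 1 lies farthest from it.

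The sensors stood near their control levels. Eif2ak4 encodes GCN2, the eIF2 kinase that senses uncharged tRNA. It read 8.51 and 8.44 with siRNA 2 and 8.31 and 8.38 with siRNA 1, against 8.50 and 8.41 in control. Eif2ak3 encodes PERK, the eIF2 kinase of the ER membrane. Its values were 8.81 and 8.83 with siRNA 2 and 8.89 and 8.64 with siRNA 1, against 8.86 and 8.72 in control, so the 3 groups overlapped. Atf6 read 9.98 and 9.93 with siRNA 2 and 9.95 and 9.95 with siRNA 1, against 10.12 and 9.92 in control, with control replicate 1 above all other arrays.

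Ern1, which encodes IRE1, was the sensor with the largest difference. It read 8.38 and 8.40 with siRNA 2 and 8.48 and 8.55 with siRNA 1, against 8.22 and 8.37 in control. All 4 knockdown arrays lay above both controls, though the siRNA 2 arrays only just. The log2 change was 0.10 with siRNA 2 (limma adjusted p = 0.999) and 0.22 with siRNA 1 (standard error 0.0862, adjusted p = 0.395).

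Among the transcription factors, Atf4 mRNA differed little between the groups. It read 8.32 and 8.31 with siRNA 2 and 8.23 and 8.24 with siRNA 1, against 8.36 and 8.28 in control, a log2 change of -0.05 for both siRNAs (95% interval -0.20 to 0.11). The siRNA 2 arrays lay between the controls and the siRNA 1 arrays just below them. Ddit3, which encodes the stress factor CHOP, read 7.63 and 7.73 with siRNA 2 and 7.66 and 7.46 with siRNA 1, against 7.75 and 7.64 in control. The groups overlapped (change -0.07, 95% interval -0.28 to 0.13). Atf5, a relative of ATF4 that is likewise controlled through its translation, had log2 changes of -0.20 with siRNA 2 and -0.03 with siRNA 1. It read 8.63 and 8.75 with siRNA 2 and 8.76 and 8.95 with siRNA 1, against 8.85 and 8.92 in control. The siRNA 2 arrays thus lay below both controls, an order that 19.8% of all genes had (standard error 0.0976, limma adjusted p = 0.999). For Cebpg, a dimer partner of ATF4, the changes were -0.12 with siRNA 2 and -0.01 with siRNA 1.

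With siRNA 1, Cebpb and Xbp1 differed more than these. Cebpb encodes a C/EBP factor that can pair with ATF4. It read 7.62 and 7.65 with siRNA 2 and 7.83 and 7.94 with siRNA 1, against 7.61 and 7.66 in control. The siRNA 1 arrays lay above all others, and the siRNA 2 arrays lay among the controls. Its log2 change was 0.24 with siRNA 1 (standard error 0.0817, limma adjusted p = 0.343), and the difference of siRNA 2 from siRNA 1 was -0.25 (adjusted p = 0.689). Xbp1 read 11.35 and 11.28 with siRNA 2 and 11.41 and 11.21 with siRNA 1, against 11.57 and 11.41 in control. The change was -0.18 with either siRNA (standard error 0.103; adjusted p = 0.999 for siRNA 2 and 0.489 for siRNA 1), and control replicate 1 stood above the rest. Without it the pooled change was -0.10.

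Slc7a3 had the largest change of the members. It encodes a cationic amino acid transporter, which carries arginine and lysine into the cell. It read 12.06 and 12.00 with siRNA 2 and 11.74 and 11.73 with siRNA 1, against 12.21 and 12.14 in control. The groups did not overlap, with siRNA 1 lowest and siRNA 2 in between. The log2 change was -0.14 with siRNA 2 (limma adjusted p = 0.999), -0.44 with siRNA 1 (1.35-fold lower, standard error 0.0783, adjusted p = 0.144) and -0.29 for both (adjusted p = 0.277). With the replicate number as a block, the siRNA 1 value passed (limma adjusted p = 0.048), and it also passed when only genes above the median level were tested (0.0482) or with eBayes trend and robust options (0.0167). Without control replicate 1, limma's adjusted p was 0.995 and the change -0.40. Between the siRNAs, siRNA 2 was 0.29 above siRNA 1 (95% interval 0.11 to 0.48, adjusted p = 0.566, and 0.191 with the replicate block).

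The other transporters differed less from control than Slc7a3 did. Slc3a2 and Slc7a5 encode the chains of the LAT1 transporter of large neutral amino acids. Slc3a2 read 13.07 and 13.10 with siRNA 2 and 13.10 and 13.10 with siRNA 1, against 13.01 and 13.03 in control, which put all knockdown arrays just above the controls. Slc7a5 read 12.60 on both siRNA 2 arrays and 12.66 and 12.73 with siRNA 1, against 12.68 and 12.65 in control. Its siRNA 2 arrays lay just below both controls (log2 change -0.06). Slc7a11, the cystine importer, read 5.17 and 5.07 with siRNA 2 and 5.22 and 5.24 with siRNA 1, against 5.05 and 5.03 in control. All 4 knockdown arrays lay above both controls, at a signal far below the median gene, and no detection call was used. The log2 change was 0.08 with siRNA 2, 0.18 with siRNA 1 (standard error 0.0785, limma adjusted p = 0.416) and 0.13 for both (adjusted p = 0.636). Slc7a1, a second cationic transporter that is no member, was chosen here after its values were seen, and its change was -0.04 for both siRNAs, with overlapping groups.

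Of the enzymes of serine, glycine and folate metabolism, Mthfd2 lay apart. This mitochondrial folate enzyme read 9.88 and 9.87 with siRNA 2 and 9.93 and 9.91 with siRNA 1, against 10.18 and 10.02 in control. The knockdown arrays lay together below both controls (change -0.20 for both, standard error 0.0743, limma adjusted p = 0.514). Its size leaned on control replicate 1, without which it was -0.12. Phgdh, Psat1 and Psph, the steps from 3-phosphoglycerate to serine, had pooled log2 changes of 0.02, 0.02 and -0.03. Psat1 had the smallest range of the members over the 6 arrays, at 0.0709. Shmt2, which turns serine into glycine in mitochondria, was at -0.10, with the largest standard error of the members (0.113). Asns, the asparagine synthetase whose promoter element is a textbook ATF4 target, read 12.49 and 12.48 with siRNA 2 and 12.56 and 12.57 with siRNA 1, against 12.59 and 12.55 in control.

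The effectors that act late in the stress response did not move one way. Chac1 degrades glutathione, and its promoter match is printed above. It read 8.64 and 8.66 with siRNA 2 and 8.72 and 8.84 with siRNA 1, against 8.98 and 8.88 in control. All knockdown arrays lay below both controls, and the log2 change was -0.28 with siRNA 2 (1.22-fold lower, standard error 0.0847, limma adjusted p = 0.693) and -0.15 with siRNA 1 (adjusted p = 0.481). Vldlr, a lipoprotein receptor, read 6.48 and 6.58 with siRNA 2 and 6.55 and 6.64 with siRNA 1, against 6.41 and 6.34 in control. It carries the same 8 bases as Chac1 and lay above both controls on all knockdown arrays (0.19 for both, standard error 0.0727, limma adjusted p = 0.545). Trib3, a pseudokinase that restrains ATF4, stood at 0.06 for both siRNAs, with 1 high array, siRNA 1 replicate 2 at 8.60.

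**Figure D3:**
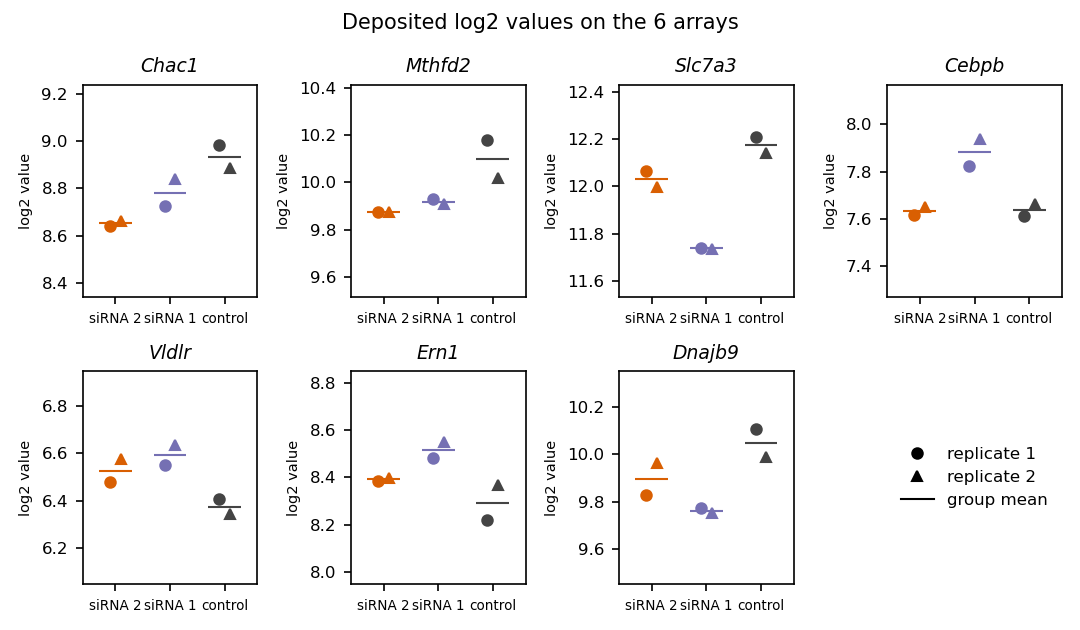
Deposited log2 values on each of the 6 arrays for the 7 members with an unadjusted p under 0.05 in any comparison, with circles for replicate 1, triangles for replicate 2 and a line at the group mean; every panel spans 0.9 log2 units. Slc7a3 and Cebpb separate the siRNAs from each other, and Mthfd2 has its knockdown arrays together below the controls.

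The ER chaperones lay slightly lower with siRNA 1, and none of the 5 passed limma's test. Hspa5 encodes BiP, the main Hsp70 of the ER. It read 12.47 and 12.50 with siRNA 2 and 12.36 and 12.46 with siRNA 1, against 12.56 and 12.47 in control. Hsp90b1 encodes GRP94, the Hsp90 of the ER, and read 12.23 and 12.16 with siRNA 2 and 12.09 and 11.98 with siRNA 1, against 12.22 and 12.16 in control. Calr encodes calreticulin, which folds glycoproteins, and Dnajc3 a cochaperone of BiP. With siRNA 1 all 5 chaperones, Hspa5, Hsp90b1, Calr, Dnajb9 and Dnajc3, lay below both controls on both arrays, an order that 20.5% of all genes had. Their log2 changes ran from -0.15 to 0.01 with siRNA 2 and from -0.29 to -0.11 with siRNA 1. With siRNA 1 the 5 stayed below 0 under median alignment, quantile normalization and cyclic loess, though Hspa5 was then at -0.03 and -0.04 under quantile and loess scaling. Control replicate 1 was the higher control in all 5.

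Dnajb9, an ER cochaperone of BiP known as ERdj4, had the largest difference among these. It read 9.83 and 9.96 with siRNA 2 and 9.77 and 9.75 with siRNA 1, against 10.11 and 9.99 in control. The siRNA 1 arrays were lowest and the siRNA 2 arrays lay between them and the controls. The change was -0.15 with siRNA 2 (limma adjusted p = 0.999), -0.29 with siRNA 1 (standard error 0.0886, adjusted p = 0.313) and -0.22 for both (adjusted p = 0.492).

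The disulfide isomerases Pdia4 and Pdia6 had pooled log2 changes of -0.06 and 0.04. The second, dimmer probe set of Pdia4 gave 0.07. Of the genes that clear misfolded protein from the ER, Sel1l, the scaffold of a ubiquitin ligase, was at -0.02. Herpud1, which holds matches to elements of both arms, was at -0.02 with siRNA 2 and -0.20 with siRNA 1. Edem1, a lectin that directs glycoproteins to degradation, read 10.62 and 10.61 with siRNA 2 and 10.65 and 10.54 with siRNA 1, against 10.41 and 10.48 in control. It was above both controls on all 4 knockdown arrays (0.16 for both, standard error 0.0705, limma adjusted p = 0.58).

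Taken by arm, the amino acid genes centred on 0 and the ER genes slightly below it with siRNA 1. The median log2 change of the 19 amino acid members was -0.04 for both siRNAs, -0.00 for siRNA 2 and -0.01 for siRNA 1. For the 14 ER members it was -0.07 for both, -0.02 for siRNA 2 and -0.11 for siRNA 1, while the medians over all genes were 0.01, -0.01 and 0.02. These medians leaned on single control arrays. Without control replicate 1 the amino acid median was -0.00 for both siRNAs, 0.01 for siRNA 2 and 0.03 for siRNA 1, and without control replicate 2 it was -0.08, -0.07 and -0.04. The ER median was -0.01 for both, 0.03 for siRNA 2 and -0.06 for siRNA 1 without control replicate 1, and -0.10, -0.05 and -0.15 without control replicate 2. The mean of siRNA 1 lay below that of control for 12 of the 14 ER members, as it did for 8870 of all 19938 genes. By array, 9 and 12 of the 14 lay below the control mean with siRNA 1, while control replicate 2 itself had 12 below it. Between the siRNAs, which involves no control array, 13 of 14 were higher with siRNA 2 than with siRNA 1, as were 8354 of all genes. The ER median relative to the control mean was -0.02 and -0.01 on the siRNA 2 arrays and -0.08 and -0.09 on the siRNA 1 arrays, against 0.04 and -0.04 on the control arrays. For siRNA 1, quantile normalization brought the ER median to -0.04 and cyclic loess to -0.04. For siRNA 2 the sign of the ER median turned under both of these scalings. Genes above the median level had a median of -0.04 with siRNA 1. Without array siRNA 1 replicate 2, which had the narrow spread, the ER median for siRNA 1 was -0.08. Without siRNA 1 replicate 1 it was -0.09. The part of the narrow spread in the ER shift was not tested.

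The knockdown and control arrays did not overlap for 10 of the 33 members for both siRNAs (30.3%), 5 higher and 5 lower. Over all genes the share was 18.9%, with 8.83% higher and 10.1% lower. Those above control were Slc7a11, Slc3a2, Vldlr, Ern1 and Edem1, and those below were Chac1, Mthfd2, Slc7a3, Xbp1 and Dnajb9. Xbp1 was barely apart, at 11.4137 on siRNA 1 replicate 1 against 11.4143 on control replicate 2. For siRNA 2 against control 6 members were higher and 9 lower (45.5%), beside 16% and 19.8% of all genes (35.8%). For siRNA 1 against control 6 were higher and 12 lower (54.5%), beside 22.9% and 20.5% of all genes (43.4%). For siRNA 2 against siRNA 1 it was 10 higher and 9 lower (57.6%), beside 15.2% and 20% of all genes (35.1%). The control arrays enter the comparisons with control alike. Between the siRNAs, 7 ER members were higher with siRNA 2 and Ern1 was lower, and of the amino acid members 3 were higher and 8 lower.

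Replicate 2 was lower than replicate 1 for 17 of the 33 members with siRNA 2 and for 16 with siRNA 1, against 27 in control. The share over all genes was not computed, so these counts cannot be read as particular to the members. Control replicate 1 had the wider interquartile range over genes (3.45 against 3.35 on control replicate 2), and its part in this count was not tested. Psat1, Psph, Shmt2, Mthfd2, Slc7a3, Xbp1, Hsp90b1 and Pdia4 were lower on replicate 2 in all 3 groups, and Atf5, Cebpb and Ern1 were higher. The other 22 members did not keep 1 direction. Psph, for example, read 8.88 and 8.65 with siRNA 2 and 8.73 and 8.61 with siRNA 1, against 8.87 and 8.62 in control. Within a group, the largest gap between replicates was 0.24 (Shmt2) with siRNA 2 and 0.31 (Trib3) with siRNA 1, against 0.25 (Psph) in control. Of the pooled changes, that of Slc7a3 (-0.29) alone was larger than this control gap of Psph. That gap is the largest of the 33 members, and the changes were not set here against the control gap of their own gene.

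Other genes of these pathways were taken from related lists, in which limma called 0 genes in any of the 4 comparisons at an adjusted p under 0.05. Among 21 other genes of the ATF4 pathway measured, 13 lay above control for both siRNAs (median 0.03), and 4 were higher and 1 lower at an unadjusted p under 0.05 (3.86% and 4.86% of all genes). The glycine transporter Slc6a9 was at 0.30 (limma adjusted p = 0.269), the neutral amino acid transporter Slc1a4 at 0.28 (0.32) and the hormone Fgf21 at 0.26 (0.397). The fourth, named after its values were seen, was the mTORC1 inhibitor Ddit4 at 0.32 (0.399), and Gadd45a, a stress gene, was the lower one at -0.22 (0.559). Thus Slc6a9 and Slc1a4 lay above control on all knockdown arrays, where Slc7a3 lay below it. Under median alignment 12 of the 21 lay above control. Of 18 cytosolic tRNA synthetases, 13 lay below control (median -0.04) and 9 under quantile normalization, with 0 at an unadjusted p under 0.05. Of 10 other serine and folate genes, 6 lay below (median -0.02) and 4 under quantile normalization, likewise with 0.

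The translation factor eIF2, its exchange factor, its kinases and their regulators lay mostly below control with siRNA 1. Of 13 measured with siRNA 2, 8 were below (median -0.03) and 0 were lower at an unadjusted p under 0.05. With siRNA 1, 11 were below (median -0.24) and 7 lower at that p, where the share over all genes is 6.37%. The siRNA 1 median ran from -0.27 to -0.18 under the 3 scalings. Eif2ak1, which encodes the heme-regulated eIF2 kinase, read 10.48 and 10.36 with siRNA 2 and 9.86 and 9.87 with siRNA 1, against 10.43 and 10.36 in control. The siRNA 1 arrays stood below all others, while those of siRNA 2 lay at the control level. The change was -0.53 with siRNA 1 (standard error 0.0836, limma adjusted p = 0.121), and siRNA 2 differed from siRNA 1 by 0.56 (adjusted p = 0.296). For Eif2ak2, the kinase PKR, siRNA 2 differed from siRNA 1 by 0.33 (0.574), and for Ppp1r15b, which helps remove the phosphate from eIF2, by 0.25 (0.723). Eif2s2, the eIF2 beta subunit, was at -0.34 for both siRNAs (0.508).

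In the ER, 21 of 32 further folding and degradation genes lay below control for both siRNAs (median -0.04), 18 for siRNA 2 (-0.01) and 25 for siRNA 1 (-0.09). Under cyclic loess the pooled median turned to 0.01, and under quantile normalization to 0.00. Ero1a, the oxidase that feeds disulfide bonds to the isomerases, read 10.90 and 10.89 with siRNA 2 and 10.49 and 10.35 with siRNA 1, against 10.65 and 10.72 in control. The siRNA 2 arrays thus lay above the controls and the siRNA 1 arrays below them, a difference between the siRNAs of 0.48 (standard error 0.0863, limma adjusted p = 0.376). Fkbp14, an ER prolyl isomerase, was at -0.19 for both (0.477). Of 12 measured sensor partners, 8 lay below control for both siRNAs (median -0.05), with Bak1, a pro-apoptotic BCL2 family protein that binds IRE1, at -0.23 (0.4).

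Chaperones outside the ER were near control too: 8 of 9 cytosolic heat shock genes lay below it for both siRNAs (median -0.02, but 0.01 under quantile normalization), with the cochaperone Bag3 at 0.32 (limma adjusted p = 0.377), and 7 of 8 mitochondrial chaperone and protease genes (median -0.06). Of 12 genes of the oxidative stress factor NRF2, 11 lay above control for both siRNAs (median 0.13, and from 0.12 to 0.17 under the 3 scalings), 3 of them at an unadjusted p under 0.05 (3.86% of all genes were higher at that p). These were Hmox1, the heme oxygenase, at 0.26 (0.339), Keap1, the NRF2 inhibitor, at 0.21 (0.507) and the glutathione reductase Gsr at 0.17 (0.545). The members Slc7a11 and Slc3a2 are also in this list. Srxn1, a sulfiredoxin, was the exception at -0.10 for both, and siRNA 2 differed from siRNA 1 by -0.39 (0.411).

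**Figure D4:**
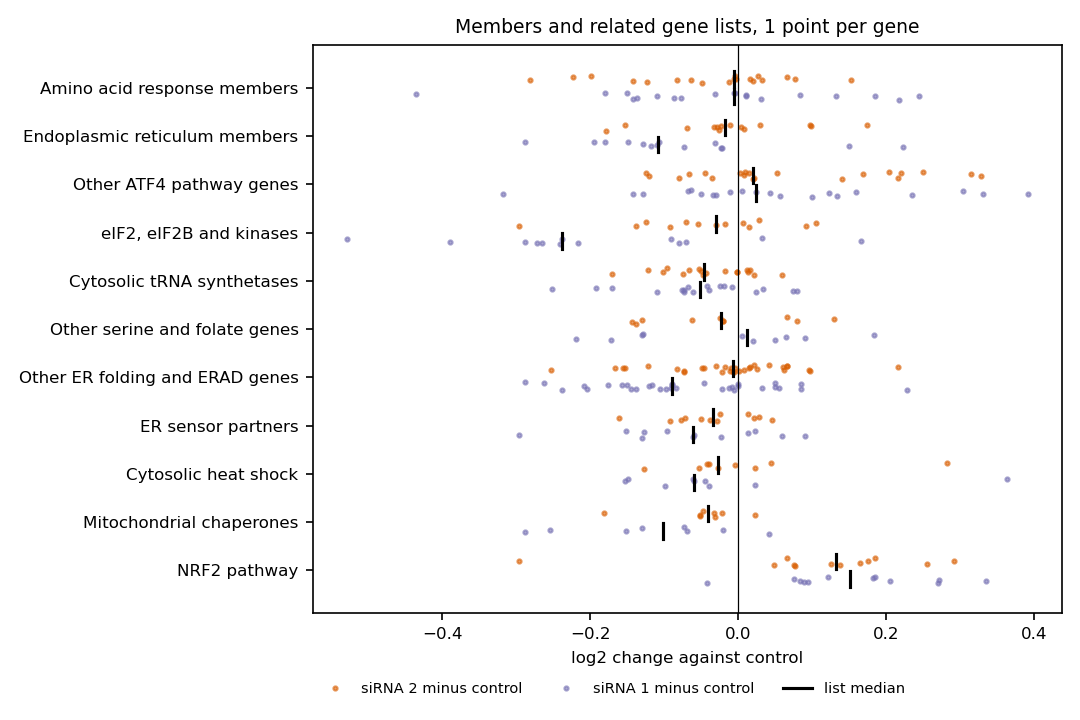
Log2 change against control, 1 point per gene, for the members of both arms and for related gene lists, with siRNA 2 (orange) above siRNA 1 (violet) and a black bar at each list's median; both siRNAs share the control arrays. The medians stay between -0.24 and 0.15, with the eIF2 list lowest for siRNA 1 and the NRF2 list highest.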

How the data were processed

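The deposited table holds 1 value for each of 35556 probe sets on 6 arrays, on a log2 scale, as the authors processed them. The submitters' processing notes name Partek software. How background was corrected, probes summarized and arrays normalized is not given in the sources used here. The log2 base was inferred from the deposited range of 2.69 to 14.6. Symbols came from GEO's platform annotation: 21789 probe sets had 1 symbol, 1621 had several and were left unnamed, and 12146 were not listed.

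All 3 groups were fitted together in limma 3.58.1 (R 4.3.3; lmFit, eBayes, 3 residual and 3.84 prior degrees of freedom) with no filter. Tests were two-sided, and a gene was called at a Benjamini-Hochberg adjusted p under 0.05 over 19938 genes. The fit was tested on simulated data with unpaired arrays and added changes larger than those of the members. That test therefore does not bear on changes of the members' size or on paired arrays. Both siRNAs means the mean of their coefficients minus control. The number of arrays limits the precision.

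The members and lists were chosen with earlier results of these data known, and the split into arms was made from textbook roles. Every member is named, with values on every array for those at an unadjusted p under 0.05 and 8 regulators, and for others where it helps. Of each related list, up to 3 genes of smallest p for both siRNAs or between the siRNAs were eligible. List symbols without a match were not analysed here.

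Same-numbered arrays deviated together from their group means, with correlations across genes of 0.464 (siRNA 1 and control), 0.407 (siRNA 2 and control) and 0.461 (siRNA 2 and siRNA 1). The numbers thus appear to pair the arrays, from the data and not from the labels. The fit reported left this pairing out, and the replicate block was run as an alternative. With the block, limma's adjusted p for both siRNAs was 0.0968 for Slc7a3, 0.196 for Chac1 and 0.197 for Mthfd2. For Dnajb9 it was 0.208 and for Vldlr 0.224. In that order, the fit reported gave 0.277, 0.48, 0.514, 0.492 and 0.545. Standard errors, intervals and p-values are unpaired unless the block is named. With 2 arrays a group the check is weak.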

Additional observations from a re-analysis of the deposited data

How the results depend on the processing

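Besides the fit reported, 14 alternatives were run: the replicate number as a block, the array codes as a block, array medians aligned, quantile normalization, cyclic loess, only genes above the median level, the mean of a gene's probe sets, eBayes with trend and robust options, and each array left out. The count of members called stayed at 0 in all of them for both siRNAs against control, siRNA 2 against control and siRNA 2 against siRNA 1. For siRNA 1 against control it was 1, Slc7a3, with the replicate block, with only genes above the median level and with trend and robust options, and 0 in the others and without any 1 array. The replicate block changed no other call of a member. Fewer genes were tested under the filter; the cause of the other calls was not tested. The log2 change of Slc7a3 with siRNA 1 ran from -0.47 to -0.37 over the alternatives, with limma's adjusted p from 0.0167 to 0.995. The lowest adjusted p of any member in any alternative was 0.0532 for both siRNAs (Slc7a3), 0.294 for siRNA 2 (Chac1) and 0.132 between the siRNAs (Slc7a3). Counts over all genes ran from 0 to 71 for both siRNAs, 0 to 26 for siRNA 2, 0 to 437 for siRNA 1 and 0 to 23 between the siRNAs. Under the 3 scalings the sign turned for 4, 5, 9 and 8 members in these comparisons, none with a change over 0.07 in size. With 1 array left out it turned for 9, 17, 13 and 10. The largest changes among those were 0.07, 0.07, 0.14 and 0.14 in size. Without control replicate 1 the median over members for siRNA 1 was 0.00, and without control replicate 2 it was -0.13. Groups of 2 arrays are too small for a check of outlying arrays.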
